A study of Homo sapiens with 6 samples.

Results

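The genes described here encode proteins of the mitochondrial ribosome. They are the rows of a deposited transcript count table whose Ensembl transcript ID maps, in GENCODE release 29, to a protein-coding gene with a symbol beginning MRPL (large subunit) or MRPS (small subunit) followed by a number. The rule found 63 genes among 22279 rows, 37 MRPL and 26 MRPS, and used no measured value. GENCODE release 29 lists 78 such symbols, and the 15 without a row in the table, among them MRPL40 and MRPS18C, were not analysed here. The cells were LNCaP, a human prostate cancer line whose growth responds to androgen, and carried either a hairpin against RB (shRB, 3 libraries) or a control hairpin (shCON, 3 libraries). All 6 libraries came from cells kept for 72 h with CDT, tagged in the labels as a treatment that arrests the cell cycle, and the series describes this state as hormone deficient. The design names 1 hairpin label per group, so RB loss and the particular hairpin or cell population cannot be told apart, and since nothing states that replicates are separate cultures, a p-value reflects only how far these libraries spread, which may be technical.

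The mitochondrial ribosome sits in the mitochondrial matrix and translates the few proteins encoded by mitochondrial DNA, all of them core subunits of the respiratory chain and ATP synthase. Its RNAs come from mitochondrial DNA, whereas every protein in it is encoded in the nucleus, made in the cytosol and imported. Many of the proteins descend from those of bacterial ribosomes, and others were added in the mitochondrial lineage. Symbols do not always follow the structure: MRPS30 and MRPS18A lie in the large subunit, and MRPS36 is now regarded as part of the oxoglutarate dehydrogenase complex. RB, the retinoblastoma protein encoded by RB1, restrains E2F transcription factors. Promoters of nuclear genes for mitochondrial proteins are known for sites of NRF1 and of ETS family factors such as GABPA.

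Promoter sequences are shown first for the pair of genes per subunit with the smallest p among those higher in shRB, MRPL47 and MRPL3, and MRPS25 and MRPS26, and for a pair of others that differ from them. MRPL11, MRPL24 and MRPL17, whose p was smaller than that of MRPS26, are not shown. MRPL11 and MRPL24 held none of the motifs, and MRPL17 held that of NRF1. MRPL36 held the most kinds of motif, and MRPL20 had the highest level per length and a log2 fold change near 0. Both were chosen after their values were seen. Each line runs 5′ to 3′ from 200 bases before to 30 after the annotated start, from RefSeq on GRCh38.p14. Capitals mark matches to the motifs named in the next paragraph.
MRPL47 (chr3:179604609-179604838, minus strand): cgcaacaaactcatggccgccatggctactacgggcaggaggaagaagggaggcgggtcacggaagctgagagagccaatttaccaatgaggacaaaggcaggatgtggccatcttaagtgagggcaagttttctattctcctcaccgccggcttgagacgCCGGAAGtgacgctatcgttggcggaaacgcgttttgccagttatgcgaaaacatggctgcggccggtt
MRPL3 (chr3:131502942-131503171, minus strand): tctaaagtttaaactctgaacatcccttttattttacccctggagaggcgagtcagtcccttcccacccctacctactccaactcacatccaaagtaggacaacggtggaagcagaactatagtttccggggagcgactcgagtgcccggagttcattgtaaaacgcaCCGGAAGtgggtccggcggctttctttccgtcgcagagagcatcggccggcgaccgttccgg
MRPS25 (chr3:15065286-15065515, minus strand): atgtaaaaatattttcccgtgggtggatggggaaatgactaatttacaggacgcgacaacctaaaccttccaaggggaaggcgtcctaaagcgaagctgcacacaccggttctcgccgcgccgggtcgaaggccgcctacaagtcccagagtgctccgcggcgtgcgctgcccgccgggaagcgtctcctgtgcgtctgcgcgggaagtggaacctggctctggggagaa
MRPS26 (chr20:3045852-3046081, plus strand): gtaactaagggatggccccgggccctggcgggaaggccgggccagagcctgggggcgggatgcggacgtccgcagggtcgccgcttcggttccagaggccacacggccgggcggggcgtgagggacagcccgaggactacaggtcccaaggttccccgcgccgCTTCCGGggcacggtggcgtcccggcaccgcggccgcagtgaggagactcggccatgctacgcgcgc
MRPL36 (chr5:1799808-1800037, minus strand): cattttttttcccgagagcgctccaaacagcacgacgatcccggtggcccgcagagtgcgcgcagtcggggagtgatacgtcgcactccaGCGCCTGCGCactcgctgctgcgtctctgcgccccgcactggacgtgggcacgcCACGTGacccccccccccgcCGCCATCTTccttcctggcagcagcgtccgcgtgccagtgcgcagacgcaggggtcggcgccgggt
MRPL20 (chr1:1407264-1407493, minus strand): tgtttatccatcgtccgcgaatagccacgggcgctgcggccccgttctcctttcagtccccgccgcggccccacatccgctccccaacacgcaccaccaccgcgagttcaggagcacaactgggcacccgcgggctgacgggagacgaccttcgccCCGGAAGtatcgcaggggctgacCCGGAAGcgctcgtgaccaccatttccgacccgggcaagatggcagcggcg

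Motifs were searched on both strands in the whole RefSeq window of 250 bases before to 50 after the start, which was found by symbol for 55 of the 63 genes. The ETS core CCGGAAG was in 22 of 55 windows (40%), against 19.4% of the windows of genes tested and 10.7% of all 27305 windows. In MRPL47, MRPL3 and MRPS26 the match began 39, 32 and 37 bases before the start, and MRPL20 had one at 44 and one at 21 bases. The YY1 motif AAGATGGCG was in 11 of 55 (20%), against 4.19% of genes tested and 1.85% of all windows, and in MRPL36 it lay on the reverse strand, beginning 36 bases before the start. The NRF1 motif was in 6 (10.9%), against 12.4% of genes tested and 6.28% of all windows. The E-box CACGTG was in 4 (7.27%, against 10.6% and 7.43%), and the E2F motifs TTTCGCGC or TTTGGCGC in 3 (5.45%, against 2.04% and 1.18%). These motifs share no overlapping match in the 6 windows printed. Genes that were higher in shRB did not carry the ETS core more often in this count than genes that were not called, 7 of 20 (35%) against 14 of 34 (41.2%), and for YY1 the counts were 3 of 20 (15%) and 8 of 34 (23.5%). A match describes letters in the window and is not a measured binding site.

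The genes were well expressed, over a wide range. Of the 63, 62 had enough counts to be tested, with at least 84 counts in every library and a median of 847. MRPS21 (ENST00000581066) was listed at 0 in all 6 libraries, which allows at most 0.0447 CPM for this row (3 counts over all libraries, counting error only). In all, 5693 of 22279 IDs were at 0 in every library. Whether reads of MRPS21 were assigned to this ID is not known, so the 0 does not show that the gene was silent. CPM is the count relative to the library total (counts-per-million) after TMM scaling, a correction for differences in RNA composition. Levels between genes were compared as CPM per kilobase of transcript (mean of 6 libraries). The median of the 62 genes was 73.9, against 10.4 over all 11712 genes tested. The middle quartiles ran from 39.9 to 101.9, and the highest level was 39.0-fold above the lowest.

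Within the large subunit, the highest levels per kilobase were in MRPL20 (379.2), in MRPL12 (226.1), a protein of the flexible stalk that recruits translation factors, and in MRPL37 (219.4). The lowest were in MRPL22 (12.6), MRPL35 (14.2) and MRPL2 (20.2). In the small subunit, MRPS34 (192.1), MRPS24 (154.6) and MRPS33 (144.8) were highest, and MRPS31 (9.73), MRPS10 (16.7) and MRPS25 (20.8) lowest. The level did not sort the genes that rose from the rest: the median per kilobase was 71.8 for those called higher and 76.8 for those not called. The length is that of the transcript named by the row, so a gene that uses another end or isoform has a misstated level.

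**Figure D1:**
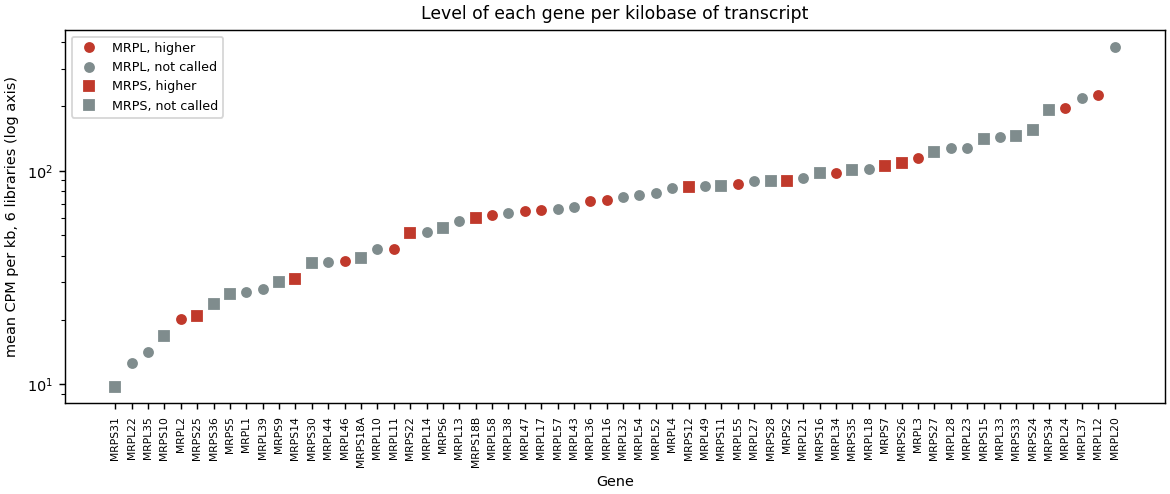
Mean CPM per kilobase over 6 libraries (log axis) for the 62 tested genes, ordered by level; circles are MRPL, squares MRPS, and red marks genes higher in shRB. Levels run from 9.73 in MRPS31 to 379.2 in MRPL20, and red points occur across the range.

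Library totals were 6115310 to 20091488 counts in shCON and 9780579 to 10898768 in shRB. RB1, the target of the hairpin, was 54.7 ± 1.93 CPM in shCON and 5.02 ± 1.06 in shRB (SD, n = 3). Luminal prostate markers such as KLK3, HOXB13 and KRT8 were abundant, with a summed level of 3879 to 4344 CPM over 8 genes in all libraries. Of 11 markers of leukocytes, stroma, endothelium and basal epithelium, only COL1A1 had enough counts to be tested. The 11 summed to 17.2 to 19.7 CPM in shCON and 12.1 to 15.5 in shRB, with PTPRC, CD3E, COL1A2, PECAM1 and KRT5 at 0 throughout. The part of these markers in the results was not tested. Replicate 2 differed in base composition from the other replicates in both groups. The Spearman correlation of its deviation from the group mean with transcript GC content was 0.69 across genes in shRB 2 and 0.53 in shCON 2. It was −0.51 in shRB 1 and −0.54 in shRB 3, and −0.51 in shCON 1 and −0.09 in shCON 3. Each group mean includes the library itself, so the values within a group are not independent. In bulk RNA, a change in RNA per cell and a change in the share of cells cannot be told apart.

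The comparison of shRB with shCON asks which transcripts change when RB is depleted without hormone. Mitochondrial ribosomal protein genes were called higher more often than genes at large, and by small amounts. By edgeR at an adjusted p under 0.05, 21 of 62 tested genes rose (33.9%), 0 fell and 41 did not pass. Over all genes tested, 12.8% were called higher and 12.5% lower. At an unadjusted p under 0.05 the same test had 23 genes higher and 1 lower, against 2164 and 2211 of all 11712 genes tested. The rises ran from 17.5% to 38.8% (log2 fold changes of 0.23 to 0.47, SE 0.072 to 0.11), and 0 of 62 reached 1.5-fold. The log2 fold change was above 0 in 49 of 62 genes, against 49.0% of all genes, and its median was 0.14, against −0.0062 over all genes.

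The groups did not overlap in 28 genes with every shRB library above every shCON library and in 2 with every shRB library below, against 21% and 20.2% of all genes. All 21 genes that rose were among the 28. The rise was smaller in shRB 3: 46 of 62 genes in shRB 1 and 45 in shRB 2 exceeded all 3 shCON libraries, but 32 in shRB 3, where 36.1%, 38.6% and 35.8% of all genes did so. With 1 library left out the count of genes higher dropped to 7 when shCON 1 was omitted, to 9 for shCON 3, and to 12 for shCON 2 or for shRB 1, when 7.31%, 8.20%, 9.48% and 10.2% of all genes were called higher. Those counts are 11.3%, 14.5%, 19.4% and 19.4% of the 62. Without shRB 2, 23 rose and 3 fell, when 17.5% of all genes were called higher and 16.5% lower. Without shRB 3, 17 rose, against 10.1% of all genes. By DESeq2 18 rose (29.03%, against 7.68% of all 16586 rows with any count). By limma-voom 21 rose (33.9%, against 12.7% of the 11712 genes kept by the filter), with 0 lower in each. The DESeq2 share is over more rows, including weakly counted ones, so the 2 shares of all genes are not alike. Offsets for GC content and length gave 26 higher and 3 lower, when 19.99% and 19.5% of all genes were called.

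**Figure D2:**
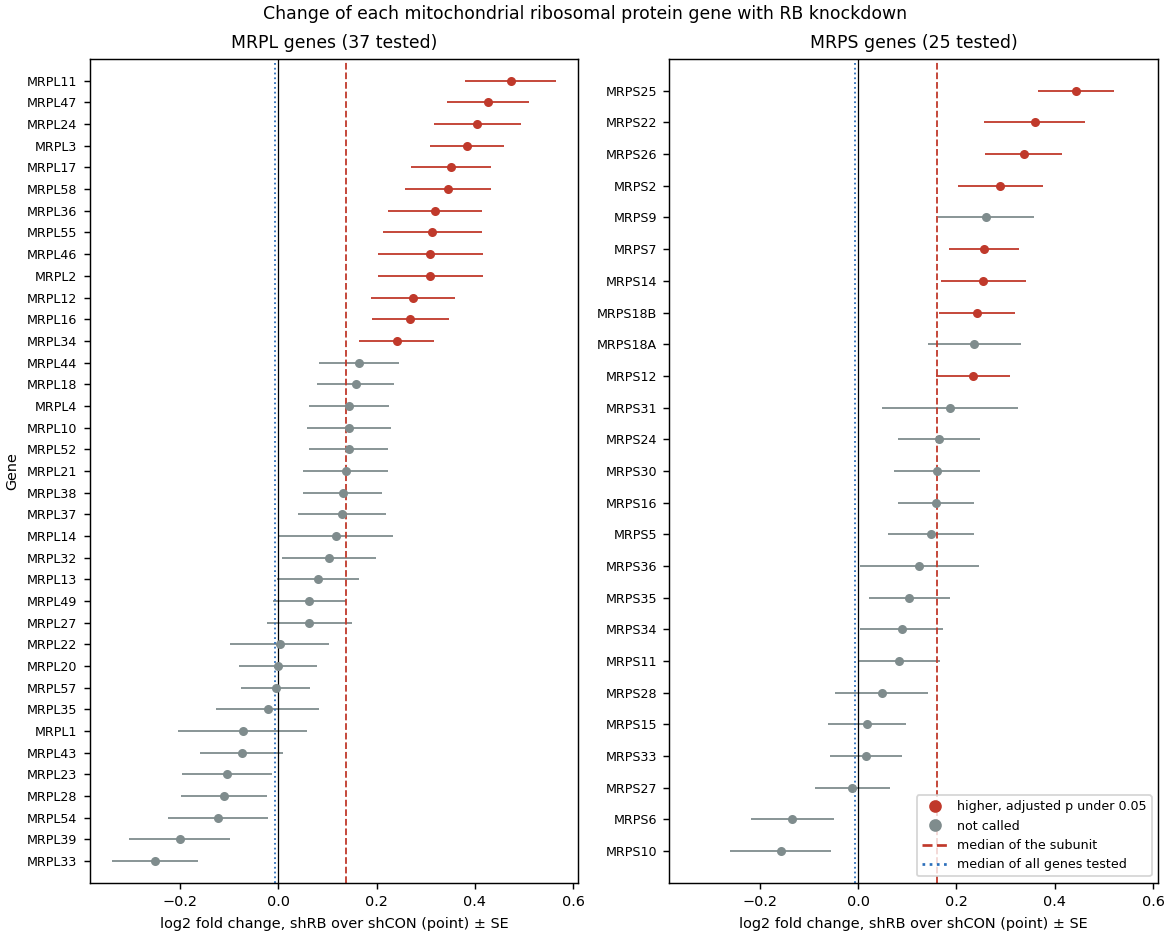
Log2 fold change of shRB over shCON ± SE for each tested MRPL gene (left) and MRPS gene (right); red points have an edgeR adjusted p under 0.05. Dashed lines mark the subunit medians (0.14 and 0.16) and dotted lines the median of all genes (−0.0062).

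In the large subunit 13 of 37 genes rose (35.1%) and 0 fell, against 12.8% and 12.5% of all genes. The other 24 failed the threshold, and the median log2 fold change was 0.14. MRPL11, a protein at the base of the stalk where translation factors bind, read 53.6, 64.6 and 55.1 CPM in shCON (replicates 1 to 3, here and below) and 77.8, 85.6 and 76.9 in shRB. That was the largest rise in either subunit (log2 fold change 0.47 ± 0.092 SE, edgeR adjusted p = 0.0023). MRPL47, related to a bacterial protein near the exit of the nascent chain, read 79.6, 69.5 and 78.9 CPM in shCON and 100.3, 108.2 and 97.98 in shRB (0.43 ± 0.083, edgeR adjusted p = 0.0022). MRPL3, a core protein with a bacterial counterpart, read 180.8, 162.95 and 164.0 CPM in shCON and 230.3, 209.1 and 224.7 in shRB (0.38 ± 0.075, edgeR adjusted p = 0.0023). In these 3 genes the lowest shRB library stood above the highest shCON library.

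MRPL24 read 146.0, 161.4 and 142.6 CPM in shCON and 193.8, 222.6 and 179.9 in shRB (0.40 ± 0.088 on the log2 scale, edgeR adjusted p = 0.0046). MRPL17 read 113.6, 118.5 and 106.0 CPM in shCON and 143.8, 155.3 and 132.96 in shRB (0.35 ± 0.081, edgeR adjusted p = 0.0065). In MRPL11, MRPL24 and MRPL17 the highest library of each group was replicate 2, which was not so in MRPL47 or MRPL3. The remaining 8 genes that rose gained 18.2% to 27.0% (adjusted p of 0.012 to 0.048). They include MRPL58, a peptidyl-tRNA hydrolase that frees stalled ribosomes (48.7 ± 0.52 to 61.8 ± 5.01 CPM, SD, n = 3), the stalk protein MRPL12, which also binds the mitochondrial RNA polymerase (210.5 ± 8.98 to 254.4 ± 28.0), and MRPL36 (38.9 ± 2.04 to 48.7 ± 3.89). The others were MRPL16, MRPL34, MRPL55, MRPL2 and MRPL46. The other stalk protein measured, MRPL10, to which MRPL12 attaches, was 70.2 ± 5.50 and 77.6 ± 4.20 CPM and did not pass (edgeR adjusted p = 0.24).

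**Figure D3:**
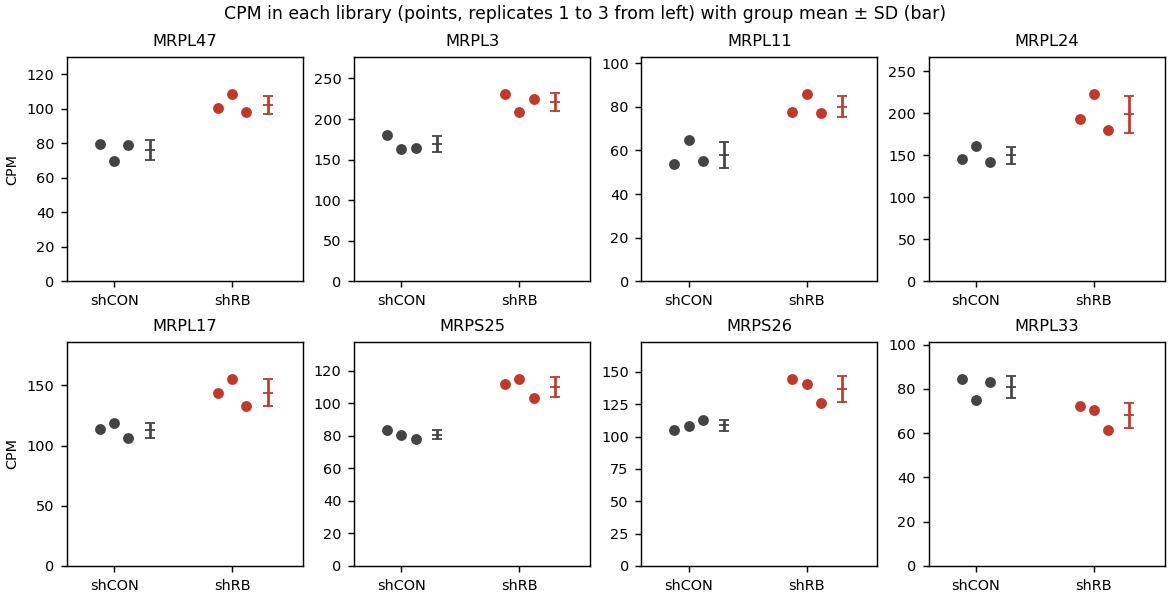
CPM in each library (points, replicates 1 to 3 from left in each group) with the group mean ± SD, for the 7 genes that passed in every fit at 0.05 and for MRPL33. In the 7 genes all shRB points lie above all shCON points, and in MRPL33 all lie below.

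In the small subunit 8 of 25 genes rose (32%) and 0 fell, against 12.8% and 12.5% of all genes. The other 17 failed the threshold, and the median log2 fold change was 0.16. MRPS25 had the smallest p of all 62 genes and read 83.6, 80.7 and 78.1 CPM in shCON and 112.2, 115.0 and 103.2 in shRB (0.44 ± 0.077 SE, edgeR adjusted p = 0.0010). MRPS26 read 104.9, 108.1 and 113.1 CPM in shCON and 144.5, 140.7 and 125.8 in shRB (0.34 ± 0.079, edgeR adjusted p = 0.0069). Both are proteins without a bacterial counterpart, and in both the groups stood apart. The remaining 6 gained 17.5% to 28.3% (adjusted p of 0.019 to 0.045). Among them were MRPS22, which also lacks a bacterial counterpart (50.3 ± 4.11 to 64.1 ± 7.68 CPM), MRPS7 of the subunit head (135.0 ± 2.27 to 161.2 ± 8.02), MRPS2 (132.3 ± 7.73 to 161.6 ± 17.1) and MRPS14 (59.9 ± 4.43 to 71.9 ± 3.77; SD, n = 3 for all). MRPS12, at the site where codons are read, rose from 92.7 ± 2.02 to 108.9 ± 5.78 CPM. Outside the 7 genes plotted as passing in every fit, each gene that rose lost its call when at least 1 library was left out. MRPS22 lost it without shCON 1, shCON 2, shRB 1 or shRB 3, MRPS7 and MRPS2 without shCON 1 or shCON 3, MRPS12 and MRPS18B without any shCON library or shRB 1, and MRPS14 without any library but shRB 2. In the large subunit MRPL58 lost it without shCON 1, MRPL12 without any shCON library, and MRPL36 without shCON 1, shCON 3 or shRB 1.

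The paralogs related to bacterial protein S18 gave near-equal estimates on either side of the threshold. MRPS18B, a small-subunit protein, rose from 84.0 ± 3.40 to 99.1 ± 4.59 CPM (0.24 ± 0.077 on the log2 scale, edgeR adjusted p = 0.035). MRPS18A, of the large subunit, was 37.9 ± 1.12 and 44.6 ± 3.64 CPM (0.24 ± 0.094, edgeR adjusted p = 0.082). MRPS30, likewise a large-subunit protein by structure, was 58.4 ± 1.06 and 65.2 ± 5.78 CPM (0.16 ± 0.087, edgeR adjusted p = 0.20). MRPS36 was 29.2 ± 3.99 and 31.6 ± 3.66 CPM (edgeR adjusted p = 0.49). With MRPS30 and MRPS18A counted in the large subunit and MRPS36 in neither, 13 of 39 large-subunit and 8 of 22 small-subunit genes rose. Those are 33.3% and 36.4%, against 12.8% of all genes. Of genes with a bacterial counterpart 16 of 41 rose (39.0%), and of those without one 5 of 20 (25%). The difference between these shares was not tested.

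Genes below 0 on the log2 scale numbered 13 of 62 and none passed. MRPL33, a small protein of the large subunit, came closest, at 84.5, 75.1 and 83.2 CPM in shCON and 72.2, 70.3 and 61.6 in shRB (−0.25 ± 0.088 SE, edgeR adjusted p = 0.052). All its shRB libraries were below all its shCON libraries. It was called lower in 7 alternative fits, among them upper-quartile scaling, library totals alone and the fit without shRB 2. MRPL39 and MRPS6, the pair on chromosome 21, were at −0.20 ± 0.10 and −0.13 ± 0.085 (edgeR adjusted p = 0.18 and adjusted p = 0.28), and MRPS10 was at −0.16 ± 0.10. Among abundant genes, MRPL20 was 273.6 ± 7.52 and 273.3 ± 25.7 CPM and MRPS27, an RNA-binding protein, 341.4 ± 15.3 and 338.4 ± 25.2 (SD, n = 3). Those differences were far smaller than the spread between replicates.

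The subunits moved by similar amounts. The 37 MRPL genes summed to 3492, 3546 and 3538 CPM in the shCON libraries and to 3929, 4109 and 3678 in the shRB libraries, a mean 10.8% higher. The 25 MRPS genes summed to 2489, 2512 and 2570 CPM in shCON and to 2789, 2897 and 2679 in shRB, a mean 10.5% higher. In both sums every shRB library was above every shCON library, and shRB 3 was the lowest of the shRB libraries. The ratio of the sums was 1.40, 1.41 and 1.38 in shCON and 1.41, 1.42 and 1.37 in shRB (1.40 ± 0.018 and 1.40 ± 0.024, SD, n = 3), and the groups overlapped. Per kilobase it was 1.73 ± 0.029 and 1.73 ± 0.042. No test was made on these sums, since the genes were chosen as a set.

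**Figure D4:**
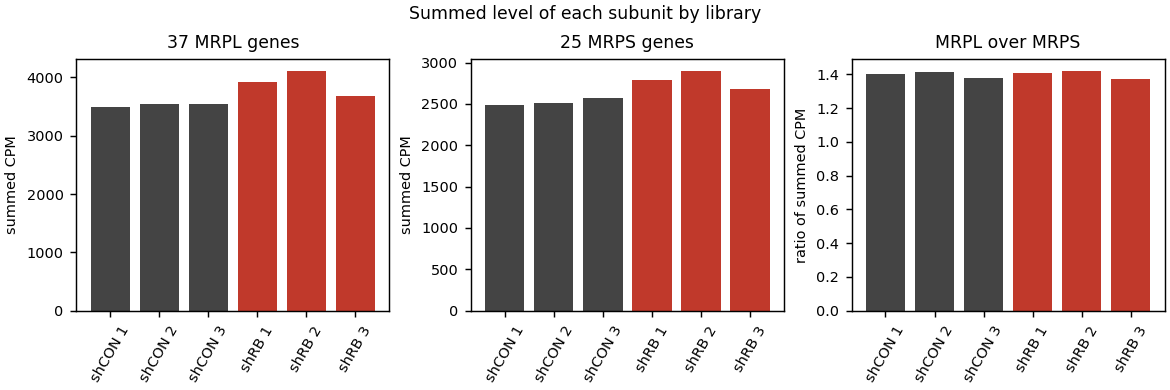
Summed CPM of the 37 MRPL genes (left) and 25 MRPS genes (middle) and their ratio (right) in each library; dark bars are shCON and red bars shRB, with axes from 0. Both sums are higher in each shRB library, while the ratio stays between 1.37 and 1.42.

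Position on the genome and shared exons moved with part of the result. The tested genes lay on 20 chromosomes and those that rose on 10. All 4 on chromosome 3 rose (MRPL47, MRPL3, MRPS25 and MRPS22), where the median of the 663 genes tested was 0.15 and 28.4% were called higher. With chromosome 3 left out, 17 of 58 rose, against 12.4% of the remaining genes. On chromosome 21, home of MRPL39 and MRPS6, the median of 123 genes was −0.38 and 63.4% were called lower. Chromosome 11 held 3 that rose (MRPL11, MRPL17 and MRPL16) of 6. Over its 668 genes the median was 0.027 and 13.3% were called higher. The part of chromosome position in these values was not tested.

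The strand setting of the counts is not given in the sources used here. Genes with overlapping exons may share reads. In the GENCODE annotation 18 of the 63 genes share exon bases with another protein-coding gene, including 9 of the 21 that rose. That leaves 12 of 44 higher (27.3%) among tested genes without such overlap, against 12.8% of all genes. The largest overlaps are those of MRPS24 with the readthrough gene URGCP-MRPS24 (85.7% of its length, same strand), and of MRPL46 (71.1%) and MRPL12 (68.2%), both called higher, with unnamed coding genes on the same strand. MRPS18A overlaps RSPH9 on the opposite strand by 56.9%. MRPL47 overlaps ACTL6A on the opposite strand by 9.05% of its length, and ACTL6A rose by a like amount (0.41 ± 0.080). MRPS22 overlaps COPB2 by 7.68% (COPB2 at 0.23 ± 0.076, called higher). MRPS25 overlaps NR2C2 by 18.4%, a gene that was not tested here. MRPS12 overlaps SARS2 by 28.9%, and SARS2 was at −0.22 ± 0.11 and did not pass. MRPS6 overlaps SLC5A3 on the same strand by 17.8%, and SLC5A3 fell by 0.47 on the log2 scale. For MRPL43, at −0.075, the overlapping gene is TWNK, the mitochondrial DNA helicase, at 0.42. The values of these genes are uncertain to that extent.

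Other genes of mitochondrial translation were taken from fixed lists. Some listed genes had no row or too few counts, and the numbers below are of genes tested. The full lists held 5 further mitoribosome proteins, 26 assembly factors, 19 mitochondrial DNA genes, 26 import genes, 74 respiratory chain subunits and 9 biogenesis regulators. Of 4 further mitoribosome proteins without an MRP symbol (DAP3, PTCD3, AURKAIP1 and CHCHD1), 0 rose and 0 fell by edgeR, with 0 at an unadjusted p under 0.05 in either direction and 0 by DESeq2 or limma-voom. With the replicate block 1 was higher (18.8% of all genes). With GC and length offsets 1 was higher and 1 lower (19.99% and 19.5% of all genes), and 1 was lower without shRB 2 (16.5%). Of 17 assembly factors, 2 rose (11.8%) and 1 fell (5.88%), neither share above that of all genes (12.8% and 12.5%), with a median log2 fold change of 0.16. The RNA helicase DDX28 rose from 34.1 ± 1.67 to 47.8 ± 1.51 CPM and the membrane insertase OXA1L from 119.3 ± 6.82 to 144.3 ± 6.03. YBEY, an endoribonuclease encoded on chromosome 21, fell from 16.5 ± 1.85 to 11.5 ± 1.25 (SD, n = 3). OXA1L and YBEY did not pass without shCON 1. Of 15 translation factors 1 rose (6.67%, below the share of all genes; median 0.020): MRRF, the recycling factor that splits the ribosome after termination, went from 41.9 ± 3.67 to 67.6 ± 2.39 CPM (0.69 ± 0.090, edgeR adjusted p = 0.00010). The count was 3 without shRB 2, when 17.5% of all genes were called higher. With offsets for GC content and length, 4 of 15 translation factors and 5 of 17 assembly factors rose. In that fit both shares were above the 19.99% of all genes called higher. TUFM, TSFM and the GTPases GFM1 and GFM2 were among the 14 that did not pass.

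Of 19 aminoacyl-tRNA synthetases that act in mitochondria, 6 rose (31.6%) and 1 fell (5.26%), against 12.8% and 12.5% of all genes (median 0.18). MARS2, which charges methionine, rose from 20.03 ± 1.29 to 32.3 ± 3.14 CPM and LARS2 for leucine from 90.6 ± 7.42 to 112.9 ± 5.08 (SD, n = 3). RARS2, for arginine and chosen after its values were seen, fell by 0.33 on the log2 scale, a call lost without any library but shRB 2. LARS2 lost its call without shCON 3 or shRB 1, and POLG and TWNK without shCON 1. Of 17 genes that copy, transcribe or process mitochondrial DNA and RNA, 7 rose (41.2%) and 0 fell (median 0.21), among them the polymerase POLG (59.1 ± 1.53 to 74.3 ± 2.22 CPM), the transcription factor TFB2M (38.5 ± 5.23 to 52.2 ± 2.49) and TWNK (17.5 ± 0.42 to 23.5 ± 2.13). With 1 library left out, 2 to 8 synthetases and 3 to 9 of these genes rose, while the share of all genes called higher ran from 7.31% to 17.5%. The lowest counts were 2 synthetases without shCON 3, and 3 mitochondrial DNA genes without shCON 1, shCON 2 or shRB 1, with 4 without shCON 3 or shRB 3. There were 3 synthetases without shRB 1 or shRB 3.

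Of 20 import genes 7 rose (35%) and 0 fell, against 12.8% and 12.5% of all genes (median 0.17), led by the inner-membrane channel proteins TIMM17A (160.3 ± 3.97 to 205.9 ± 3.78 CPM) and TIMM17B (60.9 ± 6.24 to 83.0 ± 8.73), and by the outer-membrane pore TOMM40 (70.99 ± 3.03 to 88.4 ± 4.74). TOMM40 did not pass without shCON 1. The count was 2 without shCON 1 and 4 without shCON 2 or shCON 3, and 11 without shRB 2 or with offsets for GC content and length, when 17.5% and 19.99% of all genes were called higher. Of 56 nuclear-encoded respiratory chain and ATP synthase subunits 9 rose (16.1%, near the 12.8% of all genes) and 2 fell (median 0.10). That reading depended on the fit. With GC and length offsets 23 of 56 rose, when 19.99% of all genes were called higher. With the replicate block 20 of 56 rose, against 18.8%, and with block and offsets together 25 of 56, against 21.9%. In each of these fits the share of the subunits was above that of all genes. Leaving out shCON 1 gave 3 higher, shCON 3 gave 4, shCON 2 gave 5 and shRB 2 gave 13. In those fits 7.31%, 8.20%, 9.48% and 17.5% of all genes were called higher. The 9 were led by NDUFB4 of complex I (540.8 ± 11.5 to 725.2 ± 65.1 CPM) and by UQCR10 (158.9 ± 6.86 to 208.4 ± 17.3) and UQCRC1 (371.6 ± 16.2 to 469.1 ± 47.1) of complex III. NDUFB4 and UQCRC1 lie on chromosome 3, and UQCRC1 did not pass without shCON 1. Among 6 regulators of mitochondrial biogenesis tested, of 9 listed, 3 rose (50%) and 1 fell (16.7%), against 12.8% and 12.5% of all genes. PPARGC1A, at 1 to 5 counts per library, was not tested. Those that rose were ESRRA, an orphan nuclear receptor (109.6 ± 4.67 to 162.5 ± 9.08 CPM), and the coactivators PPRC1 (43.0 ± 1.504 to 60.7 ± 4.75) and PPARGC1B (4.87 ± 1.15 to 7.74 ± 0.55). PPARGC1B lost its call without shCON 1, shCON 3, shRB 1 or shRB 3. GABPA, an ETS factor on chromosome 21, fell from 61.4 ± 5.43 to 48.4 ± 4.63 CPM, a call lost without shCON 1 or shRB 3. NRF1 was 16.96 ± 2.50 and 16.7 ± 1.24 CPM and did not pass (SD, n = 3).

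Cytosolic ribosomal protein genes, measured in the same libraries, had a median log2 fold change of −0.044. Of 66 tested, 1 rose and 3 fell, so the share higher was 1.52%, against 33.9% in the mitochondrial set and 12.8% of all genes. RPL28 fell from 1093 ± 77.8 to 769.2 ± 111.8 CPM, whereas RPSA, on chromosome 3, rose from 1389 ± 47.9 to 1774 ± 113.7 (SD, n = 3). Processed pseudogenes of these genes may share their reads. The count lower ranged from 2 to 22 with 1 library left out, the highest being without shRB 2 (16.5% of all genes lower), and was 16 with the GC and length offsets (19.5% of all genes lower).

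**Figure D5:**
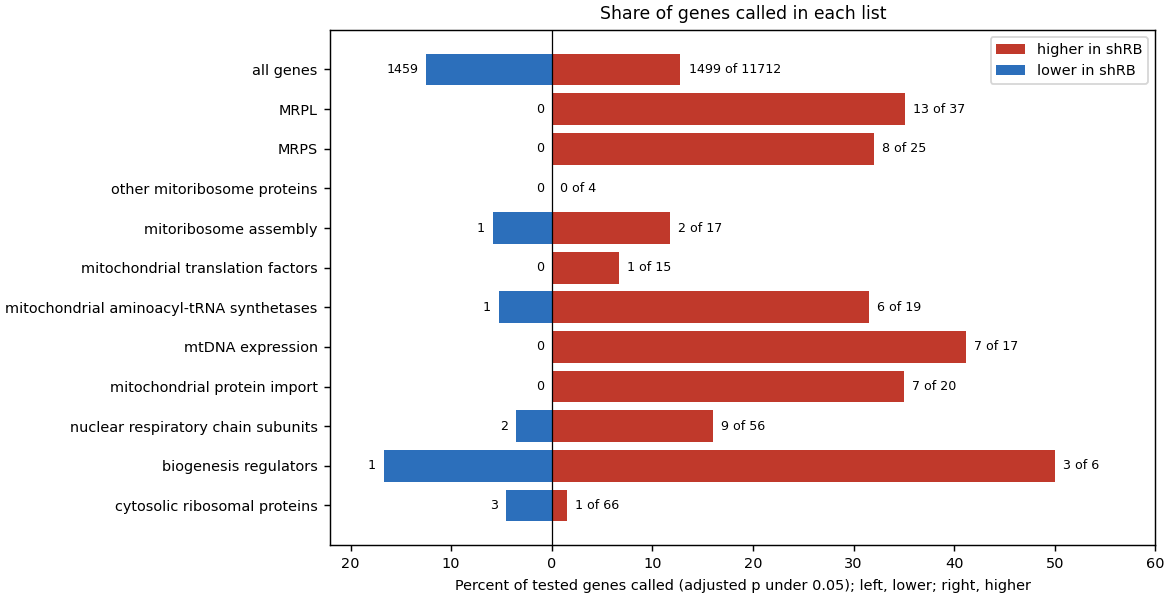
Percent of tested genes called higher (right, red) or lower (left, blue) in shRB at an edgeR adjusted p under 0.05, for all genes and for each list, with counts beside the bars. The MRPL and MRPS bars reach 35.1% and 32.0% on the right with 0 on the left, against 12.8% and 12.5% for all genes and 1.52% and 4.55% for cytosolic ribosomal proteins.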

How the data were processed

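Libraries were prepared with TruSeq reagents, per the labels' protocols. For each of 6 libraries the table deposited by the authors gives unnormalized counts of reads by transcript ID. The submitters' processing notes name STAR, HOMER, edgeR and hg19 but no version or role, and the counting options (not given in the sources used here) are unknown. GENCODE release 29, of another build, was used only for names, chromosomes, lengths, GC content and exon overlap. By ID, 22182 of 22279 rows matched. Unmatched IDs (0.377% of counts) stayed in the totals.

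Rows were kept by filterByExpr (minimum count 10, minimum total 15), scaled by TMM and tested with edgeR 4.0.16 (glmQLFit, glmQLFTest, R 4.3.3) in a model holding only the group. Benjamini-Hochberg adjustment ran over all 11712 genes, with a threshold of 0.05. The standard error is the log2 fold change over the square root of F. The procedure was checked on simulated counts without replicate or GC effects. Recovery was required there only for changes far larger than those of the genes described, so the check does not show recovery of such small rises. The set of genes, the lists and the tests were chosen with earlier results of these data known. Named genes are, per subunit, those with the smallest p and the highest and lowest levels, fixed members, and the 3 smallest p in each list, of which some are not reported here. Alternatives were DESeq2 1.42.0, limma-voom (limma 3.58.1), other scalings and filters, a replicate block, GC and length offsets, and each library left out. Sequences came from RefSeq (GRCh38.p14).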

Additional observations from a re-analysis of the deposited data

How the results depend on the processing

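The median log2 fold change stayed above 0 in every alternative run, from 0.095 to 0.19 for MRPL and from 0.12 to 0.21 for MRPS genes. With 1 library left out, the number of genes higher ranged from 7 to 23 (MRPL 5 to 12, MRPS 2 to 11), the number lower from 0 to 3 and the MRPS median from 0.15 to 0.21. The number higher was 7 without shCON 1, 9 without shCON 3, 12 without shCON 2 or shRB 1, 17 without shRB 3 and 23 without shRB 2, and the share of all genes called higher ran from 7.31% (shCON 1) to 17.5% (shRB 2). The cause was not tested. Of the 21 genes that rose, 7 kept the call in all 19 alternative fits that tested them at 0.05 (MRPL47, MRPL3, MRPL11, MRPL24, MRPL17, MRPS25 and MRPS26), and none changed sign. Of the 41 others, 12 passed in some alternative and 11 changed sign in some.

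At an adjusted p under 0.01, 7 genes were higher (5 MRPL and 2 MRPS), which is 11.3% of the 62, against 6.72% of all genes. A single gene, MRPL33, was lower with upper-quartile scaling, library totals alone, no filter and the replicate block (1 in each). The number lower was 3 with GC and length offsets and 3 with the replicate block and those offsets together. In those fits 19.5% and 21.3% of all genes were called lower. The last fit had 29 genes higher (46.8%), 14 of them MRPS, when 21.9% of all genes were called higher. The cause was not tested. Without the genes that share exons with another coding gene, 12 of 44 were higher (3 MRPS), with an MRPS median of 0.12. That is 27.3%, against 12.8% of all genes. This alternative and the one without chromosome 3 were chosen after seeing the data.

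Replicate numbers are shared between groups in the labels, which state no paired design, so the numbers were not taken as pairs. Deviations of same-numbered libraries correlated at 0.27, 0.39 and 0.0022 for numbers 1 to 3, and shCON 1 correlated more with shRB 3 (0.31) than with shRB 1. Replicate 2 stood apart: shCON 1 with shRB 2 was at −0.41, and shCON 2 was at −0.28 with shRB 1 and with shRB 3. For shCON 3 the values were 0.031 with shRB 1 and −0.023 with shRB 2. Each group mean includes the library itself, so these correlations are not independent. With the replicate block 24 genes were higher (13 MRPL and 11 MRPS), when 18.8% of all genes were called higher and 19.6% lower, and the medians were 0.14 and 0.16. The block also had 6 assembly factors, 2 translation factors, 10 synthetases, 12 import genes and 20 respiratory chain subunits higher, and 4 cytosolic ribosomal proteins higher and 12 lower. With the block and the GC and length offsets together, when 21.9% of all genes were called higher, 25 respiratory chain subunits were. At these depths (84 counts or more per gene and library) the smallest change called was 17.5%.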

Other observations

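Across the 62 tested genes Spearman's rho of the log2 fold change was 0.10 against GC content, 0.13 against transcript length and 0.081 against mean CPM (Pearson 0.097, 0.10 and 0.022). The genes share the same 6 libraries, so these values describe them only. The share of all counts taken by the 63 genes ran from 0.605% to 0.611% over the shCON libraries and from 0.642% to 0.677% over the shRB libraries, so each shRB library was above each shCON library. Before TMM scaling, the mean share was 9.36% higher in shRB.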
